A study of Mus musculus with 6 samples.

Results

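Collagen and laminin genes were examined in hippocampal RNA of 6-month-old mice. The members were the rows of the deposited gene table whose symbol has the form of a collagen chain (Col, a number, a, a number) or of a laminin chain (Lama, Lamb or Lamc with a number). There were 55 such rows among 18263 genes, of which 43 encode collagen chains and 11 encode laminin chains. The remaining row, Col4a3bp, encodes a ceramide transfer protein and not a collagen, and was left out of the classes below. Its level was 33.7, 34.2 and 78.2 CPM (the count scaled to library size) in WT and 30.1, 36.9 and 32.6 CPM in 5xFAD replicates 1 to 3.

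Both groups, 5xFAD and WT, had 3 libraries, all of hippocampus at 6 months. 5xFAD mice carry human APP with the Swedish, Florida and London mutations on a C57BL/6J background. The APP transgene is driven by the murine Thy-1 promoter, which is active mainly in neurons. The study used WT littermates as controls, and its methods describe perfusion of the mice for a younger cohort. The design text gives 3 mice per genotype, so p-values cover the spread of mice and of library preparation together.

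Collagens are trimers of chains wound into a triple helix, and laminins are cross-shaped trimers of an alpha, a beta and a gamma chain. Collagen IV and laminin form the networks of the basement membrane, which in brain lies under endothelial cells, around pericytes and at the astrocyte endfeet, and also under the pia and the choroid plexus. Fibrillar collagens (types I, II, III, V, XI, XXVII) form banded fibres and in brain come mostly from meningeal and perivascular fibroblasts. FACIT collagens bind to the surface of fibrils, collagen VI forms beaded filaments, and the transmembrane collagens include Col25a1, whose shed ectodomain is known from amyloid plaques.

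The classes held 8 basement membrane collagens (Col4a1 to Col4a6, Col15a1, Col18a1), 11 laminins, 10 fibrillar collagens, 9 FACIT collagens, 6 collagen VI chains, 4 transmembrane collagens and 6 other collagens. A further fibrillar gene, Col24a1, was not analysed here. The 55 rows together took 0.0922% to 0.115% of the 8450009 to 12577839 counts of a library. A filter on low counts kept 47 chains for testing. The 7 chains below it were Col4a1, Col9a1, Col6a6, Lamb3, Col10a1, Col28a1 and Col17a1, with 2 to 53 counts each over all 6 libraries.

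1 library stood apart. In WT replicate 3 the level of a gene went with the GC content of its transcript, with a Spearman correlation of -0.62 over 12877 genes, whereas in the other libraries it was at most 0.064 in size. Collagen transcripts are rich in glycine and proline codons and so in G and C: the tested chains had 45.9% to 62.9% GC, with a median of 55.1% against 50.5% for all genes tested. The 18 tested chains above 58% GC differed in WT replicate 3 from the mean of WT replicates 1 and 2 with a median of -0.66 in log2 CPM (range -2.88 to 0.27), and 15 of them were below zero. The 8 chains under 50% GC had a median of 0.36 (range -0.76 to 1.32), with 5 above zero. Across the 47 tested chains the Spearman correlation with GC content was -0.47, as a description, since all points share the same library. The differences of the chains described in detail are therefore also given without it.

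**Figure D1:**
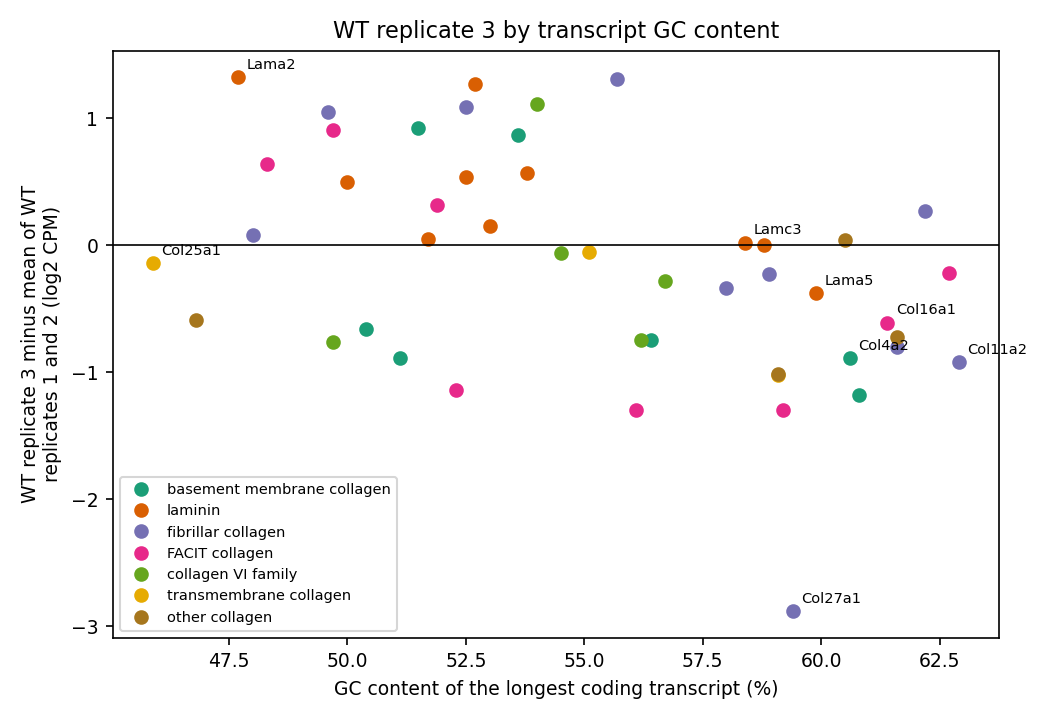
Log2 CPM of WT replicate 3 minus the mean of WT replicates 1 and 2 (vertical axis) against the GC content of the longest coding transcript in percent (horizontal axis), 1 point for each of the 47 tested chains, coloured by class. Chains above 58% GC mostly lie below zero, with Col27a1 the lowest at -2.88, and Lama2 is the highest at 1.32.

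No collagen or laminin chain differed between 5xFAD and WT at an adjusted p of 0.05 in the edgeR quasi-likelihood test with Benjamini-Hochberg adjustment over 12952 genes. Of all genes tested, 85 passed (0.656%), all higher in 5xFAD, and 0 (0%) were lower. The smallest adjusted p of a chain was 0.356. At an unadjusted p of 0.05, 4 of 47 chains were higher and 0 lower, where 4.52% of all genes were higher and 1.78% lower. With the DESeq2 Wald test 0 chains passed the adjustment, where 1.61% of all genes were higher and 0.0695% lower, and 5 were higher and 0 lower at an unadjusted p of 0.05, where 4.77% and 2.45% of all genes were. Of the 47 chains, 5 had all 5xFAD libraries above all WT libraries and 1 had them all below, where 8.42% and 6.35% of all genes did so. The 6 chains were Col16a1, Lamc3, Lama5, Lamb2 and Col27a1 (higher) and Col25a1 (lower).

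The data leave room for moderate changes. The 95% interval of the difference lay within a 2-fold change in either direction for 19 of the 47 chains (40.4%), where it did so for 53.3% of all genes tested. The log2 difference was above zero for 30 of 47 chains (63.8%) and for 47.7% of all genes, and its median was 0.15 over the chains and -0.02 over all genes. Without WT replicate 3 the medians were 0.19 and 0.01, and with a correction for GC content in all 6 libraries 0.06 and -0.02. With that correction 0 chains were called, where 0.942% of all genes were higher and 0% lower.

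Without WT replicate 3, 3 of 49 tested chains passed the adjusted p, all higher in 5xFAD: Col16a1, Lamc3 and Col27a1. In that comparison of 3 with 2 libraries 2.39% of all genes tested passed as higher and 0.501% as lower. The same 3 chains passed with the GC correction and without this library, where 2.32% of all genes passed as higher and 0.591% as lower. A further 8 of the 47 chains changed sign when this library was left out, 5 from below to above zero (Col12a1, Col4a5, Col3a1, Col5a2, Lamb1) and 3 from above to below (Col4a2, Col7a1, Col13a1). None of these 8 passed the test with or without it.

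**Figure D2:**
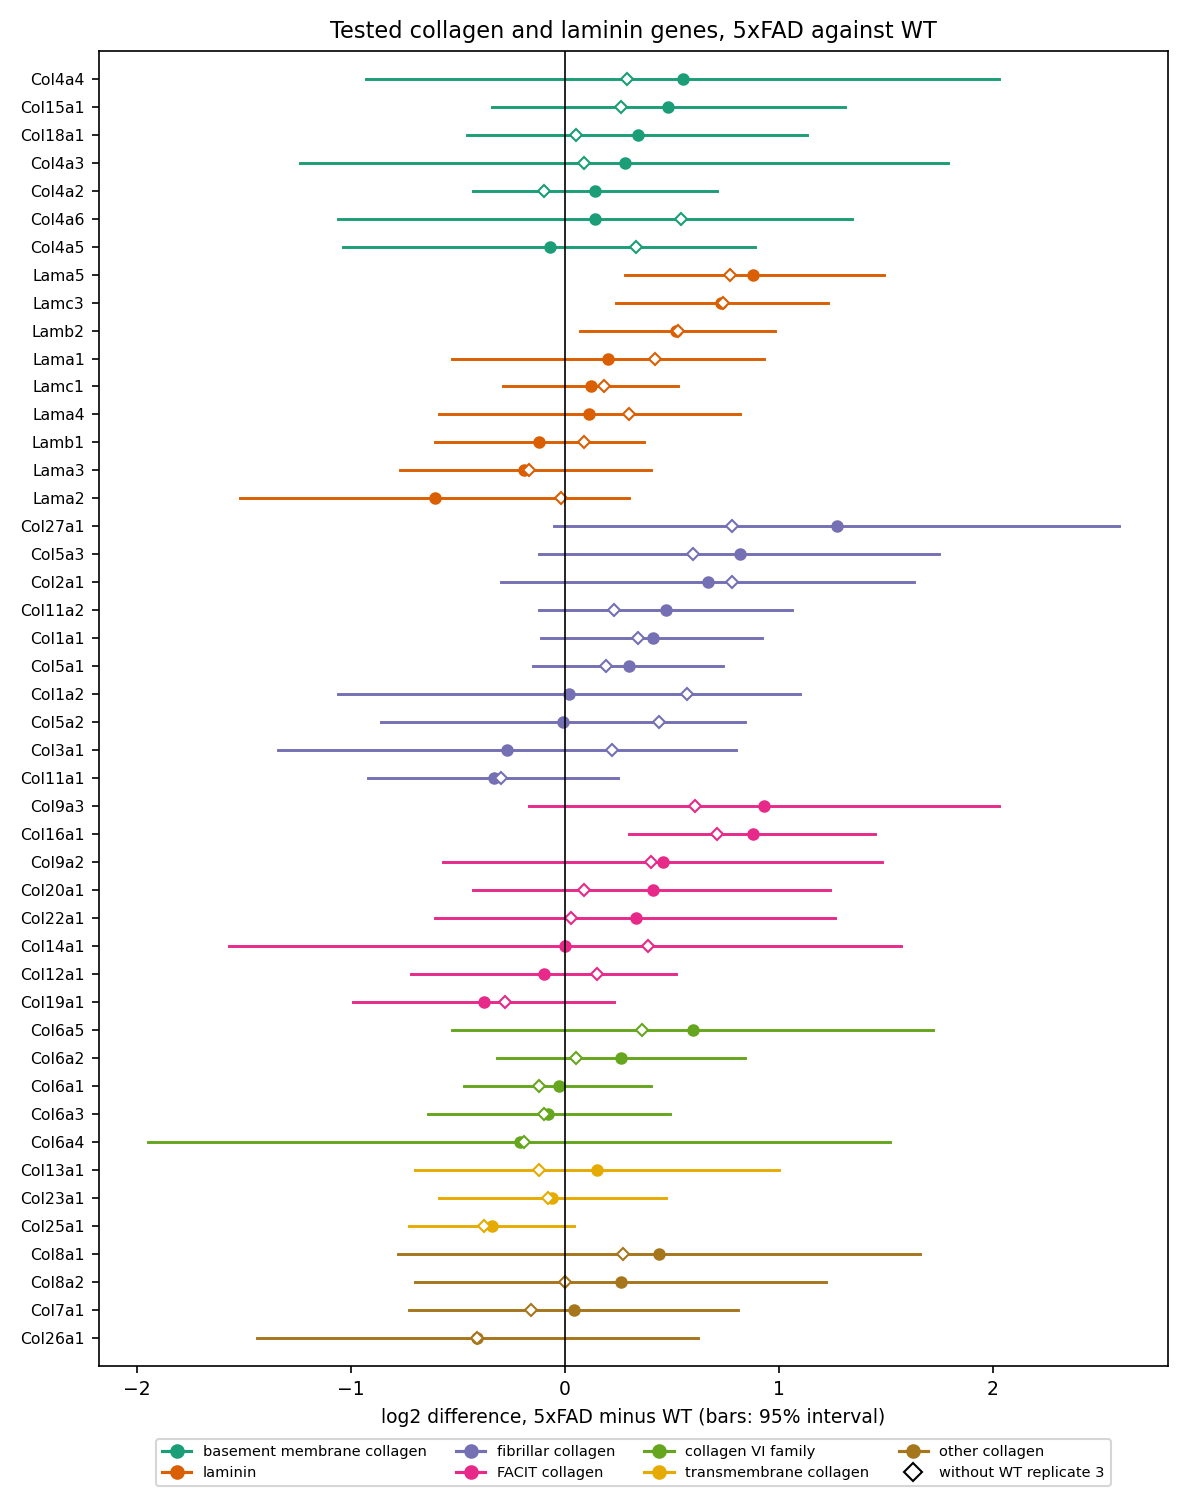
Log2 difference between 5xFAD and WT for 46 of the tested chains, grouped by class. Filled points are the difference over 3 libraries per group with its 95% interval, and open diamonds are the difference without WT replicate 3. The intervals of Lama5, Lamc3, Lamb2 and Col16a1 lie above zero before adjustment, and no chain passes the adjusted p over all genes.

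Among the chains of the basement membrane, Col4a2 was the most abundant by exon length. Its level was 21.9 CPM per kb of exon, ahead of Col6a1 (11.2 CPM per kb), Col11a2 (9.39), Lamb2 (8.65) and Lamc1 (8.65), and the lowest tested chains, Col4a6 and Col14a1, stood at 0.184 CPM per kb. Col4a2 (chromosome 8, 11312805 to 11449287, mm10) encodes a chain of the collagen IV trimer that lines all vessels. It gave 150, 176 and 87.5 CPM in WT replicates 1 to 3 and 156, 150 and 150 CPM in 5xFAD. The 5xFAD libraries lay close together inside the WT range, and WT replicate 3 was far below the rest. This gave a log2 difference of 0.14 ± 0.251 (SE, 95% interval -0.43 to 0.71, adjusted p = 0.896), which turned to -0.10 without WT replicate 3 and to -0.08 with the GC correction. Col4a2 alone made 10.7% to 18.1% of the summed CPM of all chains in a library.

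Its partner chain Col4a1, which shares the same trimer, gave almost no counts: 0, 0 and 3 in WT and 0, 0 and 1 in 5xFAD, against 918 to 1921 counts of Col4a2 in the same libraries. All libraries were at or under the floor of 3 counts, and no fold change is given. Both genes are transcribed away from each other from a common region, and their annotated starts overlap by 22 bases. A count near zero here is a fact of the deposited table and not a measure of absent expression, since Csf1r, a receptor that microglia depend on, also had at most 6 counts in every library. Why these rows were near zero was not tested. The promoter windows of the pair are shown because they overlap on opposite strands. Each sequence runs from 250 bases before to 50 after the start of the gene (RefSeq, GRCm38.p6), and capitals mark matches to CCAAT and to GGGCGG on either strand. Col4a1 lies at chr8:11312777-11313076 on the minus strand and Col4a2 at chr8:11312555-11312854 on the plus strand.
Col4a1: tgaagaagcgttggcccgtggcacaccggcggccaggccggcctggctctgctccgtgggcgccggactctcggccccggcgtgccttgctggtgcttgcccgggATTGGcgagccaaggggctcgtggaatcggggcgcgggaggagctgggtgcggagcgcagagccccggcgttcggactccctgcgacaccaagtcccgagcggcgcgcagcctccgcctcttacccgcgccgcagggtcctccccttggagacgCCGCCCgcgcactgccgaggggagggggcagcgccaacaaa
Col4a2: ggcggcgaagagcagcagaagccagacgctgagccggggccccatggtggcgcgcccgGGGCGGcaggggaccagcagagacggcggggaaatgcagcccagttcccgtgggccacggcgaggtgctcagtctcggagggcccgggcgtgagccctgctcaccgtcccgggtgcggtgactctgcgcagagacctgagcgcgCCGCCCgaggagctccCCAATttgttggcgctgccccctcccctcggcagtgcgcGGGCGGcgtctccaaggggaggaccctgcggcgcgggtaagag
The windows share 78 bases, which hold 1 match to GGGCGG and of CCAAT no whole match. Neither window holds TATAAA. Of all 32851 promoter windows of the same length, 37.4% hold CCAAT, 35.7% GGGCGG and 13.6% TATAAA on either strand, while of the 39 chains with an entry 14, 25 and 5 hold them. A match describes the letters only.

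The other collagen IV chains are paired in the genome in the same way. Col4a3 and Col4a4 lie 71 bases apart and encode chains of the collagen IV of the kidney glomerulus. Col4a4 gave 2.25, 4.41 and 1.62 CPM in WT and 1.12, 7.5 and 3.5 CPM in 5xFAD. Col4a3 gave 2.34, 2.39 and 1.43 CPM in WT and 0.496, 4.57 and 2.39 CPM in 5xFAD. In both genes 5xFAD replicate 2 was the highest and 5xFAD replicate 1 the lowest of the 6, so that the spread within 5xFAD covered the whole WT range. Col4a5 and Col4a6, 1308 bases apart on the X chromosome, stood at 0.493 and 0.184 CPM per kb. Their log2 differences were -0.07 (95% interval -1.04 to 0.89) and 0.14 (-1.06 to 1.34). Col15a1 and Col18a1, the collagens of the basement membrane zone whose C-terminal fragments are known as inhibitors of vessel growth, had log2 differences of 0.48 (-0.34 to 1.31) and 0.34 (-0.46 to 1.13). No basement membrane collagen separated the groups.

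Lamc3, Lama5 and Lamb2 were the laminin chains whose groups did not overlap, as was so, with higher values in 5xFAD, for 8.42% of all genes tested, and none of the 3 passed the adjusted p. Lamc3 (chromosome 2, 31887291 to 31946539), a gamma chain known from nerve and retina, gave 13, 10.7 and 11.9 CPM in WT and 19.1, 18.6 and 21.4 CPM in 5xFAD. All 5xFAD libraries were above all WT libraries, and WT replicate 3 lay between the other WT libraries. The fitted log2 difference was 0.73 ± 0.217 (1.66-fold, 95% interval 0.24 to 1.23, edgeR adjusted p = 0.365). Without WT replicate 3 it was 0.74 with an adjusted p of 0.0476, just past the threshold, and with the GC correction in 6 libraries 0.47 with an adjusted p of 0.816.

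Lama5 (chromosome 2, 180176373 to 180225859) encodes an alpha chain that can combine with the Lamb2 and Lamc1 chains. It gave 21.5, 23 and 17 CPM in WT and 27.9, 51.2 and 34.1 CPM in 5xFAD. The groups did not overlap, but 5xFAD replicate 2 was far above the others. On the log2 scale the difference was 0.88 ± 0.268 (1.84-fold, 95% interval 0.28 to 1.49, edgeR adjusted p = 0.395), and 0.77 without WT replicate 3 (adjusted p = 0.0592) and 0.62 with the GC correction (adjusted p = 0.679). Its promoter window, chr2:180225810-180226109 on the minus strand, is shown beside that of Col16a1 because both are among the chains of smallest p and of high GC content. It holds 4 matches to GGGCGG, in capitals, and none to CCAAT or TATAAA.
Lama5: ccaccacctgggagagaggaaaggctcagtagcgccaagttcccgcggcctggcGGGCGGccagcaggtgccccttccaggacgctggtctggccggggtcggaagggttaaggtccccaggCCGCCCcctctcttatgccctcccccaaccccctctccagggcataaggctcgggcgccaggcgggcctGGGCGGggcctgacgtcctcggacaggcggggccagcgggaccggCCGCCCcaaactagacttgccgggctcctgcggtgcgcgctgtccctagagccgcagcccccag

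Lamb2 (chromosome 9, 108479736 to 108490530), a beta chain known from the neuromuscular junction, gave 47.8, 38.9 and 43 CPM in WT and 53.7, 56.7 and 75.9 CPM in 5xFAD. The groups did not overlap, with 5xFAD replicate 1 close above WT replicate 1. The log2 difference was 0.52 ± 0.2 (1.44-fold, 95% interval 0.07 to 0.98, edgeR adjusted p = 0.675), and 0.53 without WT replicate 3 (adjusted p = 0.0903). With the GC correction in 6 libraries it was 0.24, with an interval of -0.31 to 0.79 that includes zero. Lamc1, the gamma chain of most laminins, gave 71.2, 61.2 and 73.5 CPM in WT and 64.3, 74.2 and 84.8 CPM in 5xFAD. These overlapped, and the log2 difference was 0.12 ± 0.182 (-0.29 to 0.53), or 0.18 without WT replicate 3 and 0.02 with the GC correction. Lama5, Lamb2 and Lamc1, which can form a trimer, thus had differences of 0.88, 0.52 and 0.12 with overlapping intervals. Whether they differ from each other was not tested.

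Lamb1, the beta chain of endothelial and astrocyte laminins, gave 30.5, 35.4 and 47.7 CPM in WT and 34.1, 37.3 and 33.4 CPM in 5xFAD. Its log2 difference of -0.12 ± 0.217 became 0.09 without WT replicate 3 and -0.21 with the GC correction. Lama2, the alpha chain made by astrocytes and pericytes and mutated in a congenital muscular dystrophy, gave 16, 19.9 and 44.9 CPM in WT and 15.6, 13.5 and 23.6 CPM in 5xFAD. WT replicate 3 was the highest by far, in a transcript of 47.7% GC, and the log2 difference went from -0.61 ± 0.401 (-1.52 to 0.30) to -0.02 without it. Lama3 and Lama1 had log2 differences of -0.19 and 0.20, and Lama4, the alpha chain of endothelial basement membranes, of 0.11 (-0.59 to 0.82).

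**Figure D3:**
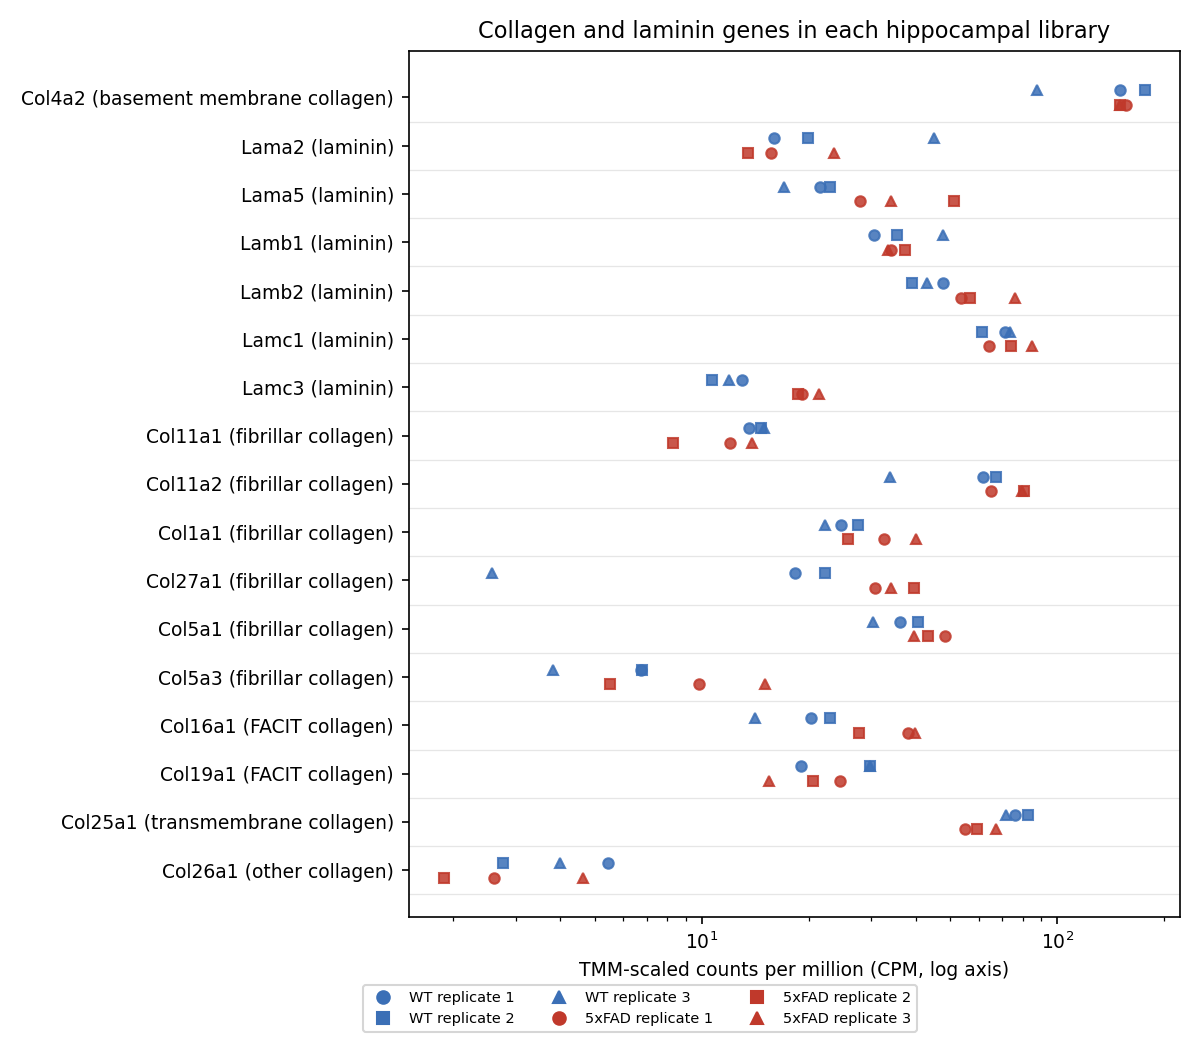
TMM-scaled CPM on a log axis (horizontal) of 17 chains described in detail, with WT libraries in blue and 5xFAD libraries in red and the replicate number given by the symbol. The groups are apart for Lama5, Lamb2, Lamc3, Col27a1, Col16a1 and Col25a1, and WT replicate 3 (blue triangle) is the lowest for Col4a2 and Col27a1 and the highest for Lama2 and Lamb1.

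In the fibrillar class, all 10 chains with a row were tested and 7 had a log2 difference above zero. Col27a1 (chromosome 4, 63214004 to 63334991), a collagen of thin fibrils known from cartilage, gave 18.3, 22.2 and 2.57 CPM in WT and 30.6, 39.6 and 34 CPM in 5xFAD. The groups did not overlap, and WT replicate 3, with 27 counts where no other library had under 212, was the lowest by far. This gave a log2 difference of 1.27 ± 0.584 (2.41-fold, 95% interval -0.05 to 2.59, edgeR adjusted p = 0.799). Without WT replicate 3 the difference was 0.78 with an adjusted p of 0.0147.

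Col1a1, the major chain of collagen I, gave 24.7, 27.5 and 22.2 CPM in WT and 32.6, 25.7 and 40.1 CPM in 5xFAD. 5xFAD replicate 2 lay within the WT range, and the log2 difference was 0.41 ± 0.227 (-0.11 to 0.92), or 0.34 without WT replicate 3 and 0.15 with the GC correction. Col1a2, the other chain of collagen I, gave 14.8, 7.35 and 26.1 CPM in WT and 9.29, 15 and 24.4 CPM in 5xFAD, with a log2 difference of 0.02 (-1.06 to 1.10), or 0.57 without WT replicate 3. Within WT, Col1a1 varied by an SD of 2.63 CPM around a mean of 24.8 and Col1a2 by 9.44 around 16.1, so that WT replicate 3 was the lowest WT library for Col1a1 and the highest for Col1a2. Col3a1, the fibrillar collagen of vessel walls, was -0.27 (-1.34 to 0.80) and turned to 0.22 without WT replicate 3.

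Col5a1, whose product starts collagen I fibrils, gave 36, 40.5 and 30.2 CPM in WT and 48.3, 43.3 and 39.6 CPM in 5xFAD. The groups overlapped, with 5xFAD replicate 3 below WT replicate 2, and the log2 difference was 0.30 ± 0.195 (-0.15 to 0.74), or 0.19 without WT replicate 3 and 0.07 with the GC correction. Col5a3, a minor chain of collagen V, gave 6.75, 6.8 and 3.81 CPM in WT and 9.79, 5.51 and 15.1 CPM in 5xFAD. 5xFAD replicate 2 fell inside the WT range, and the log2 difference was 0.82 ± 0.413 (-0.12 to 1.75), or 0.60 without WT replicate 3.

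Col11a2, a chain of collagen XI best known from cartilage and the inner ear, was the most abundant fibrillar chain per kb. It gave 61.8, 67 and 33.9 CPM in WT and 65.1, 80.4 and 79.4 CPM in 5xFAD, with 5xFAD replicate 1 inside the WT range. The fitted log2 difference was 0.47 ± 0.261 (-0.12 to 1.06), and 0.23 both without WT replicate 3 and with the GC correction. Its partner Col11a1 gave 13.6, 14.7 and 15 CPM in WT and 12, 8.32 and 13.8 CPM in 5xFAD, a log2 difference of -0.33 ± 0.259 (-0.92 to 0.25), or -0.30 without WT replicate 3. Only WT replicate 1 and 5xFAD replicate 3 overlapped.

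Set side by side, the 17 tested basement membrane and laminin chains had a median log2 difference of 0.14 and the 10 fibrillar chains of 0.35, a difference between the medians of -0.21. Of the former 12 were above zero and of the latter 7. The median GC content was 53% in the former and 58.5% in the latter, beside the GC trend of WT replicate 3. Without WT replicate 3 the medians were 0.26 and 0.39. With the GC correction in all libraries they were 0.06 and 0.11, and with the correction and without WT replicate 3 they were 0.24 and 0.38. The difference between the medians was -0.13, -0.05 and -0.14 in these settings. Chains of a class share libraries and are not replicates, so this order was not tested.

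The summed levels were also compared. Basement membrane and laminin chains summed to 413, 428 and 384 CPM in WT and 432, 469 and 500 CPM in 5xFAD. This sum, also used in the ratio below, holds almost nothing of Col4a1, whose near-zero row is not a measure of absent expression. Fibrillar chains summed to 187, 195 and 153 CPM in WT and 219, 230 and 263 CPM in 5xFAD. The 5xFAD libraries were above the WT libraries in both sums. In a check chosen after seeing the data, leaving single chains out of a sum made the groups overlap for 6 of the 19 chains of the former and for 0 of the 10 of the latter. The ratio of group means was 0.19 on the log2 scale for the former and 0.41 for the latter, or 0.15 and 0.31 without WT replicate 3. For every 100 CPM of basement membrane and laminin transcripts there were 45.3, 45.6 and 39.9 CPM of fibrillar transcripts in WT and 50.8, 49 and 52.7 CPM in 5xFAD, and these did not overlap. Against laminin alone the figures were 82.2, 90.9 and 56 CPM in WT and 89.3, 83.7 and 86.7 CPM in 5xFAD, and these overlapped. The separation of the first ratio rested on single chains, as seen after the data were known. Without Col27a1, 169 fibrillar CPM stood beside 413 CPM in WT replicate 1, and 190 beside 469 in 5xFAD replicate 2. Without Col4a2, 195 fibrillar CPM stood beside 251 CPM in WT replicate 2, and 230 beside 319 in 5xFAD replicate 2. In both cases the ratios of the groups overlapped. Without Col27a1 the fibrillar sums were 169, 173 and 151 CPM in WT and 189, 190 and 229 CPM in 5xFAD. In this bulk tissue a change in the number of cells of a type and a change in RNA per cell cannot be told apart.

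**Figure D4:**
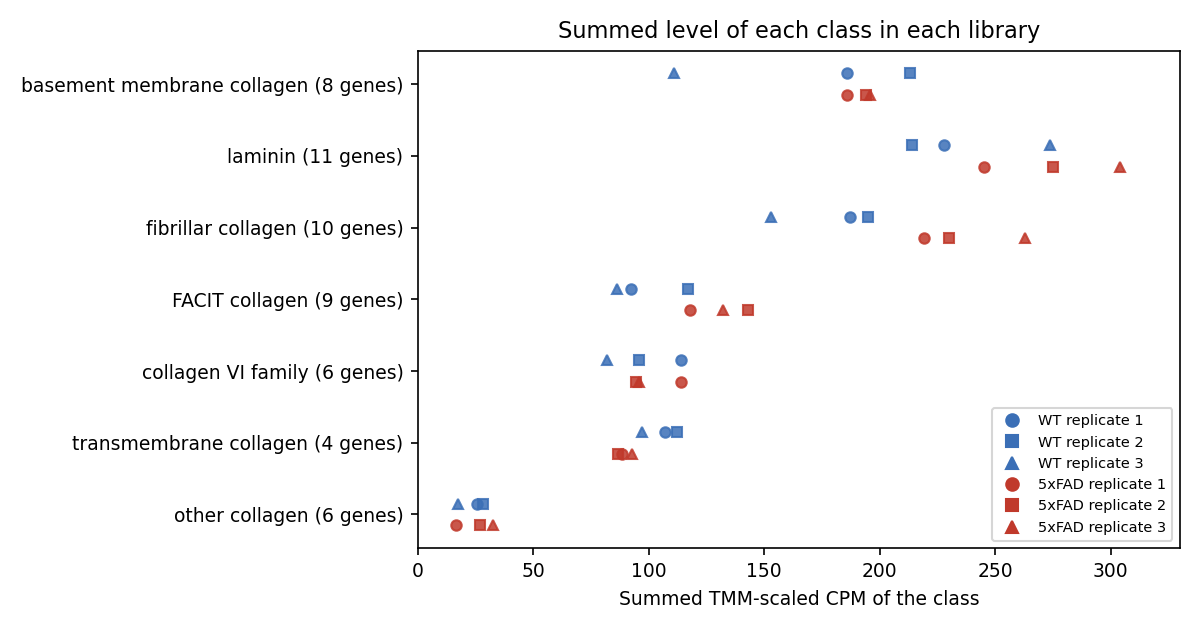
Summed TMM-scaled CPM (horizontal axis, from 0) of each class of chains in each library, with WT in blue, 5xFAD in red and the replicate number given by the symbol. Fibrillar and FACIT sums are higher in all 5xFAD libraries, the FACIT sums only just (117 CPM in WT replicate 2, 118 CPM in 5xFAD replicate 1). Transmembrane sums are lower, and the basement membrane collagen sum of WT replicate 3 (111 CPM) is far below the other 5 libraries.

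The FACIT collagens had a median log2 difference of 0.37 over 8 tested chains, or 0.27 without WT replicate 3, and summed to 92.4, 117 and 86.1 CPM in WT and 118, 143 and 132 CPM in 5xFAD. The sums were only just apart, at 117 CPM in WT replicate 2 and 118 CPM in 5xFAD replicate 1. Col16a1 made 22.9 and 37.9 CPM of these, so without it the groups overlapped. Col16a1 (chromosome 4, 130047840 to 130099283), a FACIT collagen that binds integrins and connects cells to the fibrils and basement membrane, had the smallest p of all chains. It gave 20.3, 22.9 and 14.1 CPM in WT and 37.9, 27.7 and 39.8 CPM in 5xFAD. All 5xFAD libraries were above all WT libraries, and WT replicate 3 was the lowest. On the log2 scale the difference was 0.88 ± 0.254 (1.84-fold, 95% interval 0.30 to 1.45, edgeR adjusted p = 0.356). It was 0.71 without WT replicate 3 (adjusted p = 0.0341) and 0.61 with the GC correction (adjusted p = 0.456). Its promoter window, chr4:130047590-130047889 on the plus strand, has a GC content of 74.3% and holds 1 match to CCAAT and 2 to GGGCGG, in capitals.
Col16a1: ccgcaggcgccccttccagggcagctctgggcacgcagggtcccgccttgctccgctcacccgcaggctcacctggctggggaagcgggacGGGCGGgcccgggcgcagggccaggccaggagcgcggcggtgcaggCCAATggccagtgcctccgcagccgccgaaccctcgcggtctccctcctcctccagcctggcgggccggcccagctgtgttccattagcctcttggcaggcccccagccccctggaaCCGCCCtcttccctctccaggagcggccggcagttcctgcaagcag

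Of the other FACIT collagens, Col19a1, which some hippocampal interneurons express, gave 19, 29.8 and 29.8 CPM in WT and 24.5, 20.6 and 15.4 CPM in 5xFAD. The log2 difference was -0.38 ± 0.27 (-0.99 to 0.23), or -0.28 without WT replicate 3, and the groups overlapped. Col9a3, a chain of collagen IX, gave 17.8, 31 and 9.43 CPM in WT and 19.1, 59 and 33 CPM in 5xFAD, with a log2 difference of 0.93 ± 0.485 (-0.17 to 2.03), or 0.61 without WT replicate 3. The other collagen IX chains were Col9a2 at 0.46 (-0.57 to 1.48) and Col9a1, which had 11 counts in all. Col12a1, Col14a1, Col20a1 and Col22a1 lay between -0.10 and 0.41.

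Of the collagen VI chains, Col6a1, Col6a2 and Col6a3, which assemble with each other, had log2 differences of -0.03 (-0.47 to 0.40), 0.26 (-0.32 to 0.84) and -0.08 (-0.64 to 0.49). These intervals leave out a 2-fold change in either direction. The class summed to 114, 95.9 and 81.8 CPM in WT and 114, 94.4 and 95.6 CPM in 5xFAD. Col6a5 and Col6a4 were less well measured, at 0.60 (-0.53 to 1.72) and -0.21 (-1.95 to 1.52), and Col6a4 ranged from 0.551 to 10.6 CPM within WT alone.

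Col25a1 (chromosome 3, 130131501 to 130599877) is made by neurons, and its product, also called CLAC, was first described as a component of amyloid plaques. It gave 76.2, 82.6 and 71.7 CPM in WT and 54.9, 59.4 and 67.1 CPM in 5xFAD. All 5xFAD libraries were below all WT libraries, the only tested chain for which this was so. This gave a log2 difference of -0.34 ± 0.171 (0.787-fold, 95% interval -0.73 to 0.04, edgeR adjusted p = 0.81), and -0.38 without WT replicate 3 (adjusted p = 0.119) and -0.22 with the GC correction (adjusted p = 0.892). At 45.9% GC it had the lowest GC content of the tested chains, and WT replicate 3 was its lowest WT library. The transmembrane class, of which it is the largest part, summed to 107, 112 and 97.1 CPM in WT and 88.3, 86.8 and 92.6 CPM in 5xFAD, while Col23a1 and Col13a1 differed by -0.06 and 0.15. Among the other collagens, Col26a1 gave 5.45, 2.76 and 4 CPM in WT and 2.6, 1.88 and 4.62 CPM in 5xFAD, a log2 difference of -0.41 ± 0.455 (-1.44 to 0.62), the same without WT replicate 3 and -0.70 with the GC correction.

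Some chains were highest in the library where choroid plexus markers were highest. The choroid plexus is the epithelium that makes cerebrospinal fluid and borders the hippocampus. 10 marker genes of its epithelium summed to 1327, 2415 and 424 CPM in WT and 762, 4540 and 1882 CPM in 5xFAD. None of the 10 was called. Col9a3, Col8a1, Col4a4 and Lama5, chosen after their values were seen, were highest in the library with the most marker counts, 5xFAD replicate 2. Col27a1, Col4a3 and Col11a2 were also highest in that library, at 39.6, 4.57 and 80.4 CPM. No other of the 47 tested chains was highest there. The share of all genes highest in that library was not counted. Col8a1, a short-chain collagen best known from the cornea, gave 4.24, 6.15 and 3.33 CPM in WT and 1.86, 9.61 and 7.08 CPM in 5xFAD. Ttr, the transport protein that is the most abundant of the markers, was at 1148, 2117 and 363 CPM in WT and 671, 4017 and 1631 CPM in 5xFAD. Lamc1, Lamc3, Col1a1 and Col25a1 did not follow this order. Lama5 followed it only in part, with 27.9 CPM in 5xFAD replicate 1 and 23 CPM in WT replicate 2. The part of this tissue in the values of Lama5, Col9a3 and Col27a1 was not tested.

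**Figure D5:**
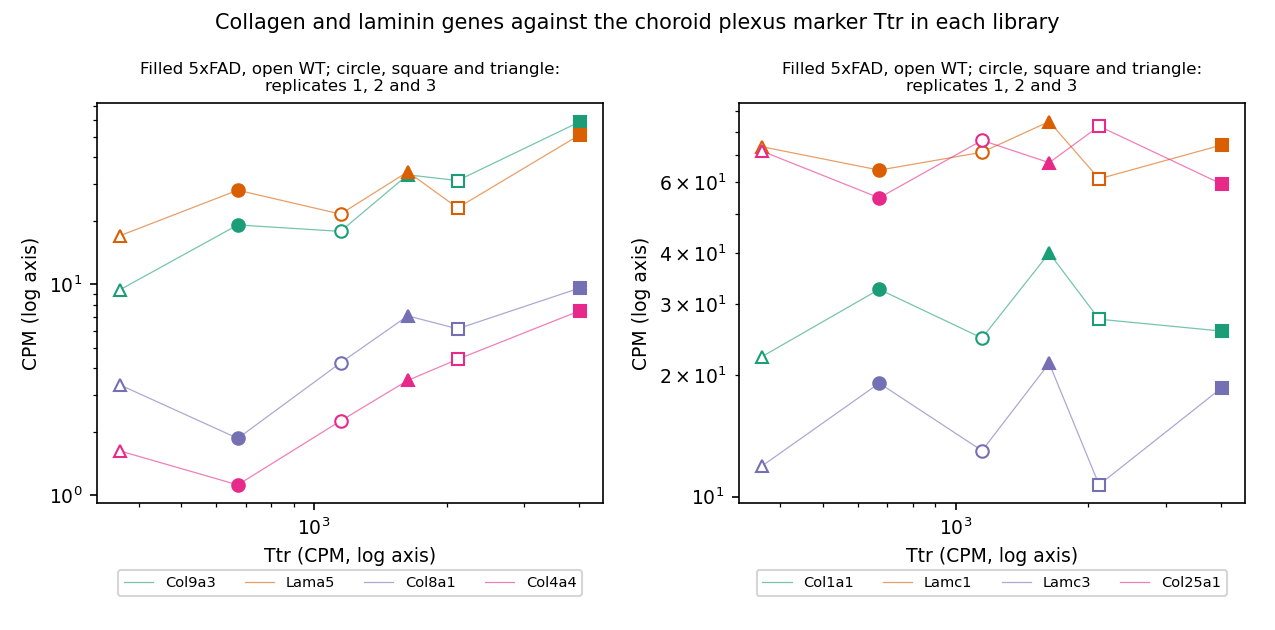
CPM of 8 chains (vertical axis, log scale) against CPM of the choroid plexus marker Ttr (horizontal axis, log scale), 1 point per library, filled for 5xFAD and open for WT, with thin lines joining the libraries of a gene in order of Ttr. The genes were chosen after their values were seen: Col9a3, Lama5, Col8a1 and Col4a4 (left) are highest where Ttr is highest, while Col1a1, Lamc1, Lamc3 and Col25a1 (right) are not.

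Markers of the cells that make most vascular and meningeal matrix were also summed. 10 endothelial markers summed to 289 to 304 CPM in WT and 315 to 349 CPM in 5xFAD, 10 mural cell markers to 229 to 256 and 222 to 305 CPM, and 10 markers of fibroblasts and meninges to 274 to 426 and 302 to 426 CPM. None of those tested was called, and their list medians were -0.05, 0.12 and -0.05. 8 astrocyte markers gave 5692 to 5769 CPM in WT and 5286 to 6210 CPM in 5xFAD. The endothelial sums did not overlap between the groups, but this rested on Slc2a1, the glucose transporter of brain endothelium, at 104, 101 and 85.5 CPM in WT and 126, 130 and 148 CPM in 5xFAD. Without it the other markers summed to 200, 193 and 203 CPM in WT and 189, 203 and 201 CPM in 5xFAD, and these overlapped, a setting chosen after seeing the data. The part of endothelial cells in the summed levels of the chains was not tested. 8 microglial markers summed to 127 to 193 CPM in WT and 453 to 495 CPM in 5xFAD, and 2 of the 7 tested were called higher. Over all genes the share called higher was 0.656%.

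Genes whose products make, hold or remove these chains were read from 5 lists. In the edgeR test over all genes, 0.656% were called higher and 4.52% were higher at an unadjusted p of 0.05. The log2 difference was above zero for 47.7% of all genes. Of the proteins that join collagen IV and laminin in the basement membrane (nidogens, perlecan, agrin and others), 0 of 14 tested were called in the edgeR test and 0 were higher at an unadjusted p of 0.05, with a median of 0.24 and 13 above zero. Sparc, a collagen IV binding protein, gave 159, 182 and 186 CPM in WT and 218, 211 and 202 CPM in 5xFAD, and Pxdn, the peroxidase that cross-links collagen IV, 99.1, 97.6 and 89.3 CPM and 123, 121 and 99.6 CPM. Both were higher in all 5xFAD libraries, with log2 differences of 0.26 ± 0.166 and 0.26 ± 0.17 and an adjusted p of 0.811 each. Among 16 tested genes for folding and modification of collagen, 0 were called and 2 were higher at an unadjusted p of 0.05 (median 0.23). They were Plod3 (0.83 ± 0.303, adjusted p = 0.627) and Plod1 (0.53 ± 0.222, adjusted p = 0.767), which hydroxylate collagen lysines.

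The list for processing and cross-linking held the only called gene of the 5 lists, 1 of 8 tested. The called share of all genes was 0.656%. Lox, lysyl oxidase, which starts the covalent cross-links of collagen and elastin, rose 5.19-fold. It gave 1.04, 0.918 and 1.33 CPM in WT and 6.57, 4.34 and 6.29 CPM in 5xFAD, from 10 to 14 counts per WT library and 37 to 79 per 5xFAD library. The groups were well apart. The fitted log2 difference was 2.38 ± 0.399 (1.47 to 3.28, edgeR adjusted p = 0.0353), with an adjusted p of 0.00315 without WT replicate 3. The call was lost with limma-voom (adjusted p = 0.0578) and when any other single library was left out (adjusted p 0.107 to 0.279, log2 difference 2.26 to 2.54). Its relatives Loxl1 and Loxl3 differed by 0.82 ± 0.359 and 0.75 ± 0.346, without a call.

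At an unadjusted p of 0.05 in the edgeR test, 4.52% of all genes were higher. Among 12 tested genes for matrix degradation, 0 were called and 1 was higher at this unadjusted p. This was Mrc2, an endocytic receptor that takes up collagen for degradation, with 32.9, 20.4 and 17 CPM in WT and 42.9, 48.5 and 66.9 CPM in 5xFAD. All 5xFAD libraries were above all WT libraries, and the log2 difference was 1.17 ± 0.291 (0.52 to 1.83, edgeR adjusted p = 0.21). It passed with DESeq2 (adjusted p = 0.0246) and without WT replicate 3 (adjusted p = 0.00982), but not with the GC correction (adjusted p = 0.148), with the replicate block (adjusted p = 0.116) or when any other single library was left out (adjusted p 0.107 to 0.929). Mmp16, a membrane-bound metalloproteinase, was lower in all 5xFAD libraries by -0.35 ± 0.181 (adjusted p = 0.81), or -0.11 with the GC correction.

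Among 14 tested receptors, 0 were called in the edgeR test, 2 were higher at an unadjusted p of 0.05, and 12 were above zero (median 0.20). The shares over all genes were 4.52% higher at that p and 47.7% above zero. Lair1, an inhibitory collagen receptor of immune cells, gave 3.03, 3.49 and 4.48 CPM in WT and 11.4, 10.3 and 10.7 CPM in 5xFAD. The groups were well apart. On the log2 scale the difference was 1.56 ± 0.29 (2.94-fold, 0.90 to 2.21, adjusted p = 0.0636), which passed with the GC correction (adjusted p = 0.00959), with DESeq2 (adjusted p = 9.74e-05) and without WT replicate 3 (adjusted p = 0.00145). It did not pass with the replicate block (adjusted p = 0.0647), with limma-voom (adjusted p = 0.0587) or when any other single library was left out (adjusted p 0.208 to 0.37). Like the microglial sum, Lair1 was higher in all 5xFAD libraries. Within WT it was highest in replicate 3, where the microglial sum was lowest (183, 193 and 127 CPM in WT replicates 1 to 3). The part of microglia in its level was not tested. Itga6, a laminin-binding integrin chain, gave 18.6, 15.1 and 19.9 CPM in WT and 28, 25.9 and 22 CPM in 5xFAD, with a log2 difference of 0.50 ± 0.219 (adjusted p = 0.791).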

How the data were processed

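The data were raw counts per gene from 6 hippocampal libraries. The submitters' processing notes name cutadapt 1.9.3 for trimming, HISAT2 2.0.4 for alignment to mm10, HTSeq 0.9.1 for counting and edgeR 3.16.5 for normalisation by the authors. RNA was depleted of rRNA and sequenced as paired ends on an Illumina NovaSeq. Annotation release and strand setting: not given in the sources used here. Whether reads of overlapping genes on opposite strands were separated is therefore not known. The authors' normalised log2 columns were not used.

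The deposited counts were grouped by genotype and tested with the quasi-likelihood test of edgeR 4.0.16 in R 4.3.3 (filterByExpr with a minimum count of 10, TMM factors, no covariate, Benjamini-Hochberg adjustment over 12952 genes). Standard errors were taken as the size of the log2 difference over the root of the F statistic, and 95% intervals are approximate. CPM are relative to TMM-scaled library sizes. Exon lengths, positions and GC content came from GENCODE M21 (GRCm38, equal to mm10). All 55 rows matched by identifier and symbol. The GC correction subtracted a smooth trend of each library's deviation against transcript GC content.

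Alternatives were other scalings, no filter, DESeq2 1.42.0, limma-voom (limma 3.58.1), the edgeR likelihood ratio test, the replicate number as a block, the GC correction, and leaving out each library. The pipeline was tested on simulated data. No 2 libraries were copies of each other (chi-square per degree of freedom 6.93 to 123). Chains described in detail were those past the adjusted p, the 6 of smallest p in each direction, the 6 most abundant basement membrane or laminin chains and the 4 most abundant fibrillar chains per kb, and Col25a1. From each pathway list up to 3 genes of smallest p were taken, and other chains are named outside this rule with their values. A chain that this rule takes and part of the 5xFAD genotype are not reported here. The members, gene lists and rules were chosen with earlier results of these data known.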

Additional observations from a re-analysis of the deposited data

How the results depend on the processing

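Across 16 alternative settings, the 33 genes described in detail (18 chains and 15 pathway genes) gave 528 values, of which 499 kept their direction and side of the threshold, 17 passed it newly, 6 lost it (all of Lox) and 6 changed direction. The last were Col4a2, at -0.08 with the GC correction, -0.08 with the replicate block and GC correction, -0.10 without WT replicate 3 (range over single libraries left out -0.10 to 0.36) and -0.08 with the GC correction without WT replicate 3, and Lamb1, at 0.09 without WT replicate 3 (range -0.25 to 0.09) and 0.04 with the GC correction without it. This last setting was chosen after seeing the data. It called 389 genes and 3 chains. Of all genes, 85 were called in the main test, 239 with the likelihood ratio test of edgeR, 218 with the DESeq2 Wald test, 138 with the replicate block and GC correction, and 15 to 387 when single libraries were left out. Chains called ranged from 0 to 3 over the libraries left out, and were 3 only without WT replicate 3. The fibrillar median of 0.35 moved to 0.11 with the GC correction and 0.12 with the block and GC correction. Its range was 0.30 to 0.44 and that of the basement membrane median 0.07 to 0.26 without single libraries, while the summed ratios ranged from 0.14 to 0.25 and 0.31 to 0.48 and the difference of the medians from -0.29 to -0.13. The cause of these shifts was not tested. Same-numbered libraries correlated by 0.09, 0.07 and 0.18 in their deviations. The labels give them only a number in common. Every library correlated best with its own number. The correlations were small, and deviations from the mean of 3 libraries are tied to each other, so no pairing can be read from them. With the replicate block 0 chains and 120 genes were called. With 10 or fewer counts in every library, Col4a1, Col10a1, Col9a1 and Col28a1 were below the filter, so the main test gave no difference for them.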
